A study of Drosophila melanogaster with 2 samples.

Results

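Neuropeptide and peptide hormone precursors other than the NPY-like and insulin-like peptides were examined in heads of adult Drosophila melanogaster. The 32 genes were taken by name from a list of known precursors, with no value of theirs in the rule, although earlier results of these data were known when the list was made, and 31 of them were found among the 12083 genes listed in either library. No identifier in the tables was matched to Nplp2, so no value is given for it. The flies were of the white-eyed laboratory strain w1118, began the diets at an age of 4 to 7 days, and were collected at 10 to 14 days. The labelled ages and diet length do not add up exactly at the upper end. One group ate a standard control diet and the other the same diet with sucralose, a chlorinated sweetener with almost no usable energy, for 6 days. The labels give no sex, number of pooled flies, sucralose dose or time of collection. The study asked, by its title, whether sucralose promotes eating by way of NPY and a fasting response in neurons.

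Each diet is represented by 1 library of total RNA, of 10.3 M and 10.4 M uniquely assigned reads. There is therefore no spread between replicates and no test of the diets, and every interval below reflects counting error alone and sets 1 library against the other. Among markers fixed for other cell types, the 9 gut genes summed to 3195 control and 110 sucralose reads, all 8 with at least 50 reads were over 1.5-fold lower, and Jon99Cii and LysC were at 0 in the sucralose library. The 7 muscle genes were all lower (38706 and 27630 summed reads) and 6 of 7 glial genes were lower (26925 and 17614). All 7 photoreceptor genes were higher (447524 and 637328), of which ninaE alone had 330537 and 498084 reads. The counting interval of the fold lay wholly below 1 for 6 muscle genes and for 4 glial genes, Gat, alrm, Gs2 and Eaat1. It lay wholly above 1 for 6 photoreceptor genes. The intervals of bt, trp, repo, moody and wrapper include 1. The 5 neuronal genes summed to 49580 and 50079 reads, with 2 higher and 3 lower. Of 4 fat body genes with at least 50 reads, 2 were higher and 2 lower, from Lsp2 (177 and 32 reads) to Yp1 (20 and 113). Of 3 such cuticle and epidermis genes, 1 was higher and 2 were lower. Of 3 such hemocyte genes, 2 were higher and 1 was lower, none by 1.5-fold. The most abundant gene of both libraries was the rhodopsin gene ninaE, a gene of the eye, as the head label requires. It cannot show whether tissue from outside the head was also present in either library, which was not tested. What these marker genes contribute to the values below was not tested. In bulk tissue, fewer cells of a type and less RNA per cell cannot be told apart.

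A neuropeptide begins as a longer precursor that enters dense-core vesicles, where the convertase encoded by amon cuts it and other enzymes trim and amidate the fragments. The released peptides act mostly on G protein-coupled receptors, either locally in the brain or through the blood as hormones. In the fly head they come from small sets of neurons and neurosecretory cells that control feeding, water balance, sleep and stress responses, and several of the same genes are also active in endocrine cells of the gut.

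Most precursors were slightly higher in the sucralose library, and only a few differed by 1.5-fold or more. Of the 31 genes, 26 reached a floor of 50 reads, added over the libraries, and were counted. Differences are given as log2 of (CPM + 0.5), sucralose minus control, where CPM is reads per M after scaling. Of the 26, 22 were above 0, against 49.6% of the 8889 genes with as many reads, and their median difference was 0.28, against 0.00 for all those genes. Ptth and CNMa were at least 1.5-fold higher (1.96% of all genes) and SIFa and Nplp3 at least 1.5-fold lower (4.12%), so 4 of 26 passed that mark either way, beside 6.07% of all genes. Of these 4, Nplp3 alone had more than 200 summed reads. The counting interval lay wholly above 1 for 14 precursors (17.3% of all genes) and wholly below 1 for 3 (19.0%), counts that also depend on how many reads a gene has. A band of folds from 1.2 to 1.5, chosen after the values were seen, held 13 of the 26 precursors and 10.1% of all genes. Akh, the adipokinetic hormone gene of the corpora cardiaca outside this set, had 89 control and 8 sucralose reads.

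**Figure D1:**
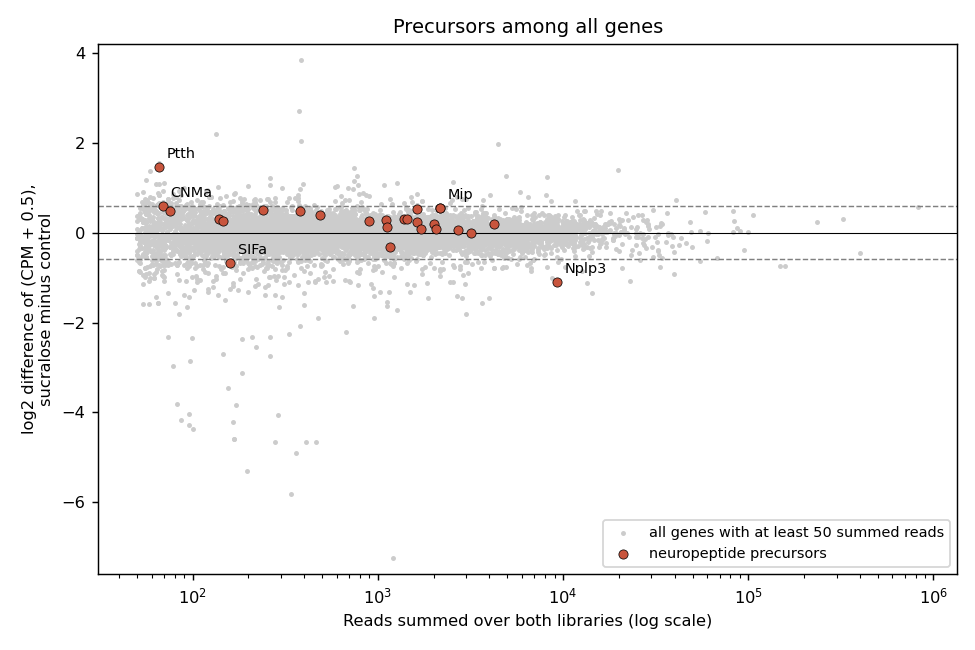
Each point is a gene over the floor of 50 reads; the x axis is its reads in both libraries together (log scale), the y axis the log2 difference of (CPM + 0.5), and dashed lines mark 1.5-fold. Of the 26 precursors (red), 22 lie above 0 and 4 lie beyond the dashed lines.

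Levels spanned a wide range. In RPKM, reads per kilobase of gene model per M reads, the median precursor stood at 33.1 on the control and 40.5 on the sucralose diet, against 10.2 for all listed genes in both. Nplp3 was the most abundant matched precursor in both, at 1143 and 536 RPKM. The unmatched Nplp2 cannot be placed in this order, and 2 of the 496 unmatched identifiers had more RPKM than Nplp3 in both libraries. It was followed by the myosuppressin gene Ms (206.0 and 235.0 RPKM), the sulfakinin gene Dsk (169.3 and 180.3) and the clock peptide gene Pdf (87.8 and 108.7). These first 4 places were the same in both libraries, and the counting intervals of neighbours there did not overlap in the control library. Further down, from Orcokinin at 71.1 RPKM to Tk at 50.2 RPKM in the control, each neighbour's interval overlapped the next, and over the whole control order 23 of 30 neighbouring pairs overlapped. At the bottom, amn stood at 0.394 and 0.582 RPKM, and the eclosion hormone gene Eh had 1 control read and 0 sucralose reads, a count that allows up to 0.288 CPM in the sucralose library. Among all listed genes, 25 of the 31 precursors, those under the floor included, took a higher place by RPKM in the sucralose library. This restates the direction of the differences in another unit, and the share of all genes that rose in place was not computed.

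**Figure D2:**
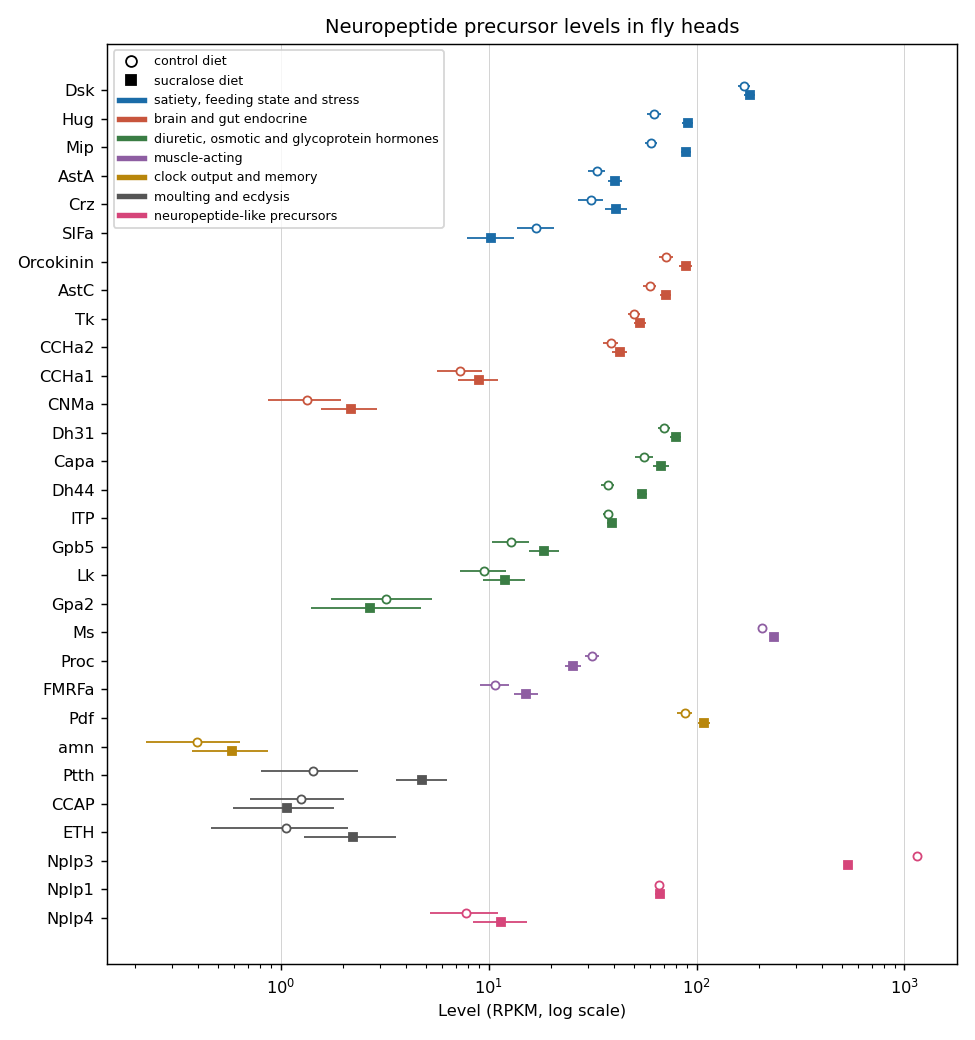
RPKM (log scale) of 30 precursors in the control (open circles) and sucralose (filled squares) libraries, grouped by role, with exact Poisson intervals of the counts; Eh, at 0 reads in the sucralose library, is not drawn. Nplp3 stands at 1143 and 536 RPKM, while Ptth stands at 1.43 and 4.80.

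Peptides tied to satiety, feeding state and stress were higher in 5 of 6 cases, with 3315 control and 4296 sucralose reads in sum (1.27-fold higher, 95% interval 1.21 to 1.33). Mip, the myoinhibitory peptide (allatostatin B) precursor that acts in satiety and mating receptivity, had 866 and 1299 reads, or 60.4 and 89.2 RPKM. Its fold was 1.47 (1.35 to 1.61), and its log2 difference of 0.55 was the nearest below the 1.5-fold mark. Hug, whose hugin neuropeptide is related to neuromedin U and restrains the onset of feeding, had 661 and 975 reads (1.45-fold higher, 1.31 to 1.60). Crz encodes corazonin, a stress hormone related to gonadotropin-releasing hormone, and had 209 and 280 reads (1.31-fold, 1.10 to 1.58). AstA, the allatostatin A gene whose neurons inhibit feeding, had 491 and 611 reads (1.22-fold, 1.08 to 1.38).

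The same group also holds Dsk and SIFa. Dsk, the fly's cholecystokinin-like satiety peptide, had 989 and 1070 reads, and its interval of 0.973 to 1.16 around a fold of 1.06 includes no difference. Dsk is made in part by the insulin-producing cells, whose genes Ilp2, Ilp3 and Ilp5 summed to 821 and 919 reads (1.10-fold, 0.998 to 1.21). The members of this sum differed. Ilp2 had 561 and 619 reads, Ilp3 had 173 and 234 (1.33-fold, 1.09 to 1.62) and Ilp5 had 87 and 66 (0.744-fold, 0.532 to 1.04). SIFa, the SIFamide gene of a few large brain neurons that promote appetite and shape sleep and courtship, was lower, unlike the rest of its group. It had 99 control and 61 sucralose reads, or 16.9 and 10.3 RPKM, and was 1.65-fold lower (1.19 to 2.31). On the opposite strand, Start1 shares 21.1% of the exon bases of SIFa and was slightly higher, with 332 and 399 reads.

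Peptides shared between the brain and gut endocrine cells were all above 0 (6 of 6), by small amounts. The group summed to 2812 and 3305 reads (1.15-fold higher, 1.10 to 1.21). Orcokinin had 637 and 807 reads (1.24-fold, 1.12 to 1.38), and AstC, a somatostatin-like allatostatin, had 736 and 892 (1.19-fold, 1.08 to 1.31). Tk, the tachykinin precursor, had 823 and 893 reads (1.06-fold), and CCHa2, which in larvae signals nutrition to insulin-producing cells, had 525 and 589 (1.10-fold). The intervals of both include 1, as does that of CCHa1 with 65 and 81 reads (0.871 to 1.72). CNMa passed the mark with few reads, 26 and 43, or 1.33 and 2.17 RPKM, and the interval of its 1.62-fold difference also includes 1 (0.975 to 2.75). The gut protease, amylase and lysozyme markers were 29.6-fold lower in sum, and their part in the values of these precursors was not tested.

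Diuretic, osmotic and glycoprotein hormone genes summed to 3679 and 4484 reads (1.2-fold higher, 1.14 to 1.25), and all 6 that were counted lay above 0 and under 1.5-fold. Dh44, a hormone related to corticotropin-releasing factor whose brain neurons respond to nutritive sugars, had 865 and 1290 reads, or 37.4 and 54.9 RPKM (1.46-fold higher, 1.34 to 1.60). Dh31, related to calcitonin gene-related peptide, was 1.14-fold higher (926 and 1073 reads, 1.04 to 1.24). Capa, which encodes the periviscerokinins that act on the renal tubules, had 399 and 491 reads (1.21-fold, 1.06 to 1.38). ITP, an ion transport peptide that limits water loss, was the nearest to no difference in this group, with 1317 and 1398 reads (1.04-fold, 0.965 to 1.12). Lk, the leucokinin gene, had 61 and 78 reads with an interval of 0.886 to 1.78, and 93.0% of its exon bases are shared with an antisense RNA gene, so the reads cannot be assigned to it with certainty if strand was not used. Gpb5 and Gpa2 encode the subunits of a glycoprotein hormone. Gpb5 had 97 and 142 reads (1.44-fold higher, 1.10 to 1.88), while Gpa2, under the floor of 50 reads, had 14 and 12.

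Muscle-acting peptides gave no common direction. Ms, which slows heart and gut contractions, had 1953 and 2262 reads (1.14-fold higher, 1.07 to 1.21), and FMRFa had 157 and 225 (1.41-fold higher, 1.14 to 1.73). Proc, the proctolin precursor that stimulates muscle, had 639 control and 525 sucralose reads and was 1.24-fold lower (1.10 to 1.40). The sum of the muscle markers was also 1.43-fold lower, and their part in the value for Proc was not tested. Pdf, the main output peptide of the clock neurons, had 613 and 771 reads (1.23-fold higher, 1.11 to 1.37). The memory gene amn had 16 and 24 reads, too few to count.

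Genes known for moulting were rare in these adult heads. Ptth, the prothoracicotropic hormone that drives ecdysone production in larvae, had 15 control and 51 sucralose reads, or 1.43 and 4.80 RPKM. Its fold of 3.34 (1.85 to 6.39) was the highest among the 26 precursors counted, and reads covered 47.0% of its gene model on the control diet and 90.9% on the sucralose diet. ETH, the ecdysis triggering hormone gene, had 8 and 17 reads (interval of the fold 0.853 to 5.58), and an antisense gene shares 90.5% of its exon bases. CCAP, the crustacean cardioactive peptide gene, had 16 and 14 reads. With Eh, 3 of these 4 genes were under the floor, so no direction is read from them as a group.

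The neuropeptide-like precursors, named after fragments found in extracts of the larval nervous system, differed from one another. Nplp3 had 6317 control and 3010 sucralose reads and was 2.14-fold lower (2.05 to 2.23). It supplied 29.9% of the reads of the 31 matched precursors on the control diet and 14.6% on the sucralose diet. Nplp1, one of whose peptides is made in clock neurons, had 1575 and 1602 reads with a fold of 0.998 (0.930 to 1.07), and Nplp4 had 30 and 45 (1.47-fold, 0.907 to 2.42). Through Nplp3, the 31 matched genes together went from 21146 to 20631 reads, a fold of 0.957 (0.939 to 0.976), whereas the sum without Nplp3 gave 1.17. The median and the summed reads thus differed in direction.

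**Figure D3:**
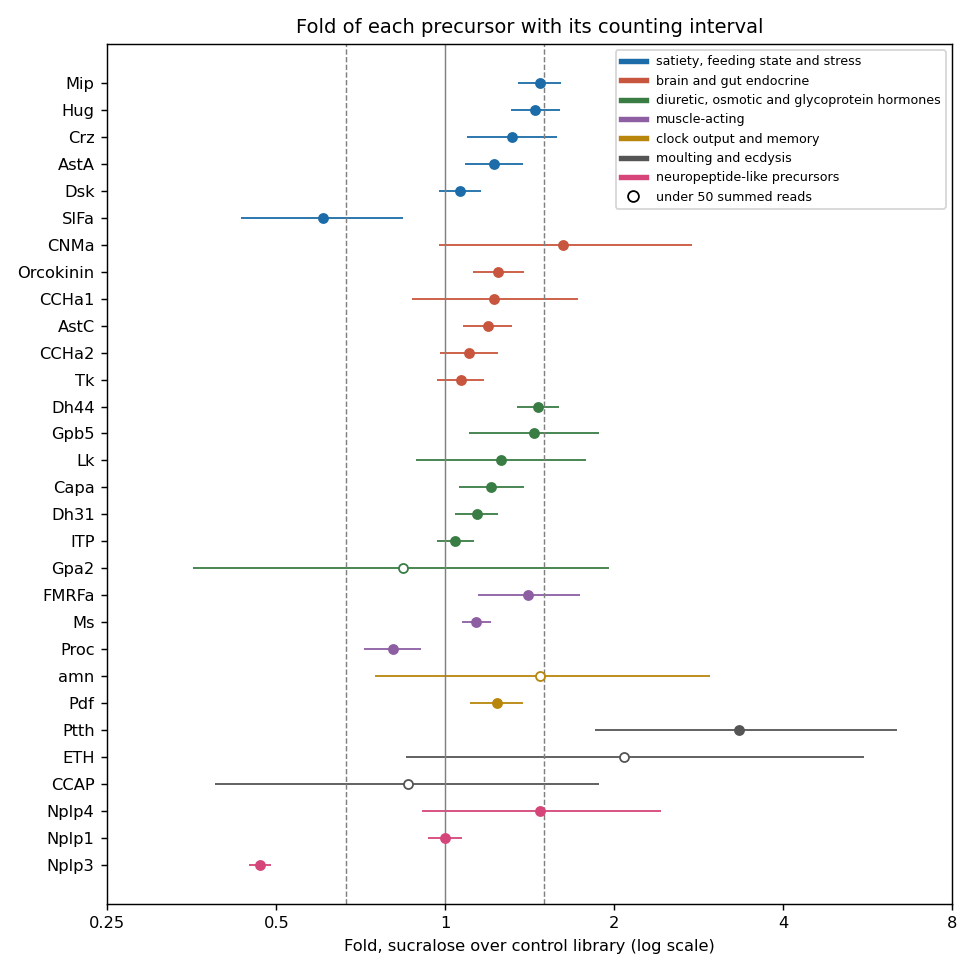
Fold of the sucralose over the control library (log scale) for 30 precursors, grouped by role, with exact binomial 95% intervals for counting error; dashed lines mark 1.5-fold either way and open circles mark genes under 50 summed reads. Nplp3 (0.467) and SIFa (0.604) lie below the lower line, and CNMa (1.62) and Ptth (3.34) above the upper line among filled circles.

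Reads covered at least 90% of the gene model of 20 precursors in both libraries, and under 50% of amn, CCAP and Eh in both. Precursor gene models were short, with a median of 1033 bases against 1785 for all listed genes. Besides SIFa, Lk and ETH, no matched precursor shared 20% or more of its exon bases with another gene.

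Receptors for these peptides did not show the upward median of the precursors. Of 32 receptor genes listed, 30 were matched and 28 counted. Of these, 12 were above 0, a share of 42.9% beside 49.6% of all genes. None reached 1.5-fold higher and 2 were at least 1.5-fold lower, a share of 7.14% that is near the background of 6.07%. Their median difference was -0.06 and their summed reads were 5831 and 5846. The allatostatin A receptor gene AstA-R2 had 62 and 18 reads (3.51-fold lower, 2.05 to 6.31) and the FMRFamide receptor gene FMRFaR had 137 and 81 (1.72-fold lower, 1.30 to 2.30). Receptor genes of Mip, Dh44 and Hug, the abundant precursors nearest the 1.5 mark, lay between 1.0-fold and 1.42-fold. SPR, the receptor for Mip peptides and for sex peptide, had 638 and 706 reads (1.09-fold, 0.974 to 1.21). Dh44-R1 had 294 and 301 reads (1.0-fold, 0.852 to 1.18) and Dh44-R2 had 418 and 493 (1.16-fold, 1.01 to 1.32). Other genes overlap 26.8% of the exon bases of SPR and 33.2% of those of Dh44-R2. Of the hugin receptor genes, PK2-R1 had 51 and 74 reads (1.42-fold, 0.983 to 2.08) and PK2-R2 had 39 and 41 (1.03-fold, 0.649 to 1.64). SIFaR was 1.21-fold higher (211 and 260 reads, 1.0 to 1.46), opposite to SIFa, and CNMaR was 1.29-fold higher (163 and 214 reads, 1.05 to 1.59), as CNMa was. The Ptth receptor gene tor had 11 and 5 reads.

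The counting interval lay wholly below 1 for 5 of the 28 receptors and wholly above 1 for 4, beside 19.0% and 17.3% of all genes. Besides AstA-R2 and FMRFaR, those below were the myosuppressin receptor gene MsR1 (233 and 183 reads, 1.30-fold lower, 1.06 to 1.58), the corazonin receptor gene CrzR (281 and 237, 1.21-fold lower, 1.01 to 1.44) and the proctolin receptor gene Proc-R (381 and 332, 1.17-fold lower, 1.01 to 1.36). Besides Dh44-R2, SIFaR and CNMaR, the one above was Lgr1, the receptor gene for the Gpa2 and Gpb5 hormone, with 370 and 446 reads (1.18-fold higher, 1.03 to 1.36). The intervals of the rest that were counted include 1. In this remainder, Pdfr had 660 and 615 reads, Dh31-R had 380 and 420, Lkr had 78 and 78, and the second myosuppressin receptor gene MsR2 had 101 and 99. The pairs of receptor genes for AstC, Tk and Dsk all lay between 0.831-fold (CCKLR-17D3) and 1.06-fold (TkR86C), with AstC-R1, AstC-R2, TkR99D and CCKLR-17D1 in between. The lowest folds in this remainder were those of PK1-R (78 and 57 reads, 0.717-fold) and CCHa2-R (58 and 49, 0.829-fold), while CCHa1-R had 56 and 53 reads. ETHR had 121 and 128 reads and CCAP-R 34 and 43, and CapaR, under the floor, had 15 and 11. No identifier was matched to AstA-R1 or to Gyc76C, a receptor listed for Nplp1.

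Of 26 precursor and receptor pairs with both genes counted, 9 were above 0 for both, 15 were above 0 for the precursor and below for the receptor, 1 was the reverse and 1 was below 0 for both. Of all counted genes of each kind, 22 of 26 precursors lay above 0 and 16 of 28 receptors below it. Many mixed pairs would therefore arise without any link between partners, and no such link was tested. A gene with several partners enters more than 1 pair, so the pairs are not independent. In 25 of the 26 pairs the receptor had the lower control RPKM.

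**Figure D4:**
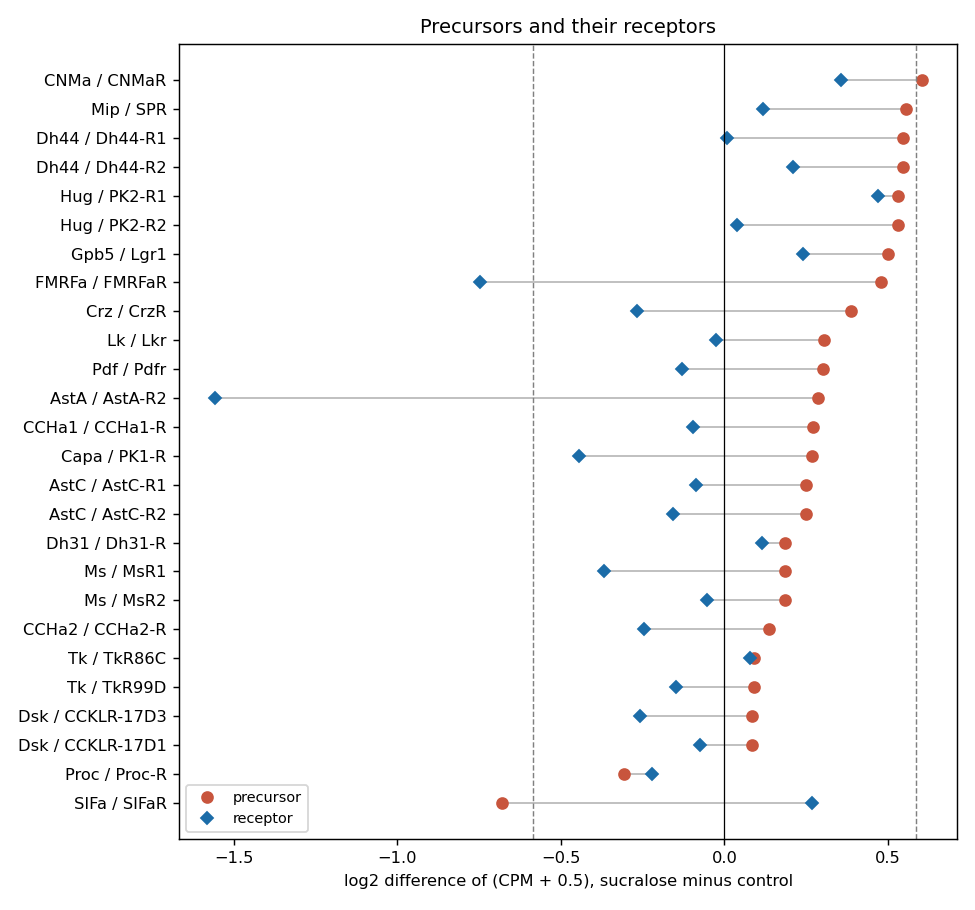
The log2 difference of (CPM + 0.5), sucralose minus control, for each precursor (circles) and its receptor (diamonds) in 26 pairs with both genes at 50 summed reads or more; dashed lines mark 1.5-fold. In 15 pairs the precursor lies above 0 and the receptor below it, a count that follows in part from the direction of each list alone. AstA-R2 (-1.56) is the lowest receptor.

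Genes that process and package neuropeptides were mostly slightly higher as well. Of 18 listed, 14 were matched and counted, with a median difference of 0.13. Of these, 10 were above 0, a share of 71.4% beside 49.6% of all genes. None reached 1.5-fold either way, beside 6.07% of all genes, and in so short a list that share would be about 1 gene at most. IA-2, a transmembrane protein of dense-core vesicles, was the most abundant in reads, with 34187 and 48325 (1.39-fold higher, 1.37 to 1.41). The convertase gene amon had 4007 and 4677 reads (1.15-fold, 1.10 to 1.19), and Pal2, of the amidating enzymes, had 5778 and 7167 (1.22-fold, 1.18 to 1.26). A gene on the opposite strand overlaps 25.7% of the exon bases of Pal2. No identifier was matched to Phm or Pal1, the other amidating enzyme genes listed, or to Rabphilin and unc-104. The gene for the amon-associated chaperone 7B2 had 4050 and 4027 reads (0.975-fold, 0.934 to 1.02), and the carboxypeptidase gene svr had 4390 and 4395 (0.982-fold, 0.942 to 1.02). The transcription factor gene dimm, which sets the secretory character of peptidergic cells, had 30 and 45 reads (1.47-fold, 0.907 to 2.42).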

How the data were processed

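Head RNA was isolated with Trizol and sequenced from Illumina libraries, per the labels' protocols. The authors deposited 1 table per library with the count of unique reads per gene, raw and whole, summing to the total in the header. Per the file headers, the tables also hold gene length, percent coverage of the gene model and RPKM by the authors, which recomputation from count, length and total matched. The sources used here do not name the aligner, build, annotation or strandedness. The unmatched identifiers (496 of 12083) took 6.07% and 6.12% of reads.

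The members and lists were chosen with earlier results of these data known. All 32 precursors are named; of the receptors those of the members described, and of the processing genes the most abundant and any beyond 1.5-fold, with amon, Pal2, 7B2, svr and dimm added after their values were seen. Counts were scaled by TMM (edgeR 4.0.16, R 4.3.3; factors 0.998 and 1.002). With 1 library per diet no test was run. Folds are ratios of scaled counts with exact conditional binomial (Clopper-Pearson) 95% intervals; a count of 0 allows up to 3 counts. As there are no molecular identifiers, reads are not independent molecules. Shared exon bases and the nearest genes on either side came from gene positions in the BDGP6.54 annotation. No coordinates are printed. The script was tested on simulated data. Alternatives were other scalings (total counts, DESeq2 1.42.0 size factors, upper quartile, TMM without the 20 most abundant genes), pseudocounts of 0.1 and 5 CPM, no floor or one of 200 reads, means, TPM, and sums without the most abundant genes.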

Additional observations from a re-analysis of the deposited data

How the results depend on the processing

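The median difference of the precursors stayed between 0.23 and 0.29 under every scaling, pseudocount, floor and summary tried. With the floor of 50 reads, 22 or 23 of 26 precursors lay above 0. With no floor 24 of 31 did, and with a floor of 200 reads 17 of the smaller number left. A pseudocount of 5 CPM left 1 precursor at least 1.5-fold higher and 1 lower, and a floor of 200 reads left 0 higher and 1 lower. By TPM, the level ratios of Mip, Nplp4 and amn were each 1.501, just past 1.5, against 1.477 by RPKM. Of these, amn is under the floor of 50 reads. The summed reads gave a fold of 1.17 without Nplp3 and 1.19 without the Nplp genes, against 0.957 with all, and the neuropeptide-like group gave 1.01 without Nplp3, against 0.577. Under the other 4 scalings each of 30 precursor folds stayed inside its counting interval, although Nplp1 (0.998) crossed 1 under some of them. That the folds stayed inside was nearly fixed in advance, since the library factors of all scalings lay between 0.993 and 1.007. A pseudocount of 5 CPM or a floor of 200 reads left 1 receptor at least 1.5-fold lower. Depth limits the 5 precursors under 50 reads, and with 1 library per diet no replicate could be left out or paired.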

Other observations

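Nplp3 has retinin, which encodes a protein of the corneal lens of the eye, as its nearest counted gene on one side. For each of the 4 precursors beyond 1.5-fold, the nearest gene on either side with at least 50 summed reads was taken from the annotation, a step added after the values were seen. Any genes in between with fewer reads were passed over. The neighbour of Nplp3 on one side, retinin, had 10193 control and 4121 sucralose reads (2.52-fold lower, 2.43 to 2.61). On its other side, CG13067 had 67 and 54 reads (fold 0.791, 0.542 to 1.15). Photoreceptor genes, also of the eye, were higher in the sucralose library, by 1.40-fold in sum, and ninaE supplied most of those reads. Single genes ranged from trp (41009 control and 41923 sucralose reads), whose interval includes 1, to Rh4 (1.66-fold higher). These genes were not chosen as markers of the corneal lens. Whether the amount of eye tissue bears on the values of Nplp3 and retinin was not tested.

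The neighbours of Ptth were cold (355 and 306 reads) and the photoreceptor transcription factor gene Pph13 (583 and 726), neither beyond 1.5-fold. Those of SIFa were Start1 (332 and 399 reads) and pio (2282 and 2020), also within 1.5-fold. For CNMa they were CG12024 (723 and 734 reads) and the cuticle protein gene Cpr62Bb, which had 256 and 141 reads (1.85-fold lower, 1.5 to 2.29).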
